A study of Arabidopsis thaliana with 6 samples.

Results

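Aliphatic glucosinolates are sulfur-rich defence compounds that Arabidopsis thaliana and its relatives build from methionine. Methionine is first deaminated and lengthened by repeated rounds of chain elongation, which resemble leucine synthesis. Cytochromes P450 then turn the lengthened amino acid into an oxime and onward, and further enzymes add sulfur, glucose and sulfate to complete the glucosinolate core. A small group of MYB transcription factors switches these genes on, and other MYB factors control the separate indolic branch, which starts from tryptophan. The 10 genes described here were chosen by locus, as 3 of these MYB factors, 4 genes of chain elongation and 3 cytochromes P450 of the aliphatic pathway. They were chosen with earlier results of these data known, as were the lists of other genes below. All 10 were among the 33602 loci of the deposited table, and 9 reached an average of 1 RPKM (the deposited unit, in which reads are divided by the length of the gene and the size of the library) over the libraries and were tested.

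RNA was sequenced from whole seedlings of the Columbia (Col) ecotype, with no mutation or transgene given in the labels. One group of 3 libraries came from seedlings on 5 mM Gln (glutamine) and the other group of 3 from seedlings on 5 mM NH4NO3, each as the sole nitrogen source. In both groups plants were kept in the cold for 2 days and then grown for 12 days in cycles of 16 h light and 8 h dark at 22 °C. Both media held a salt mixture without nitrogen, and 0.5% sucrose. The Gln medium contained no nitrate or ammonium, so that the supply of Gln and the absence of NH4NO3 cannot be told apart.

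The implied depth was 30269262 to 35421669 reads in genes in the Gln libraries and 28654397 to 31980678 in the NH4NO3 libraries. Libraries of 1 group correlated at 0.990 to 0.994 (log2(RPKM + 1), across genes) and libraries of different groups at 0.959 to 0.966. NH4NO3 replicate 2 stood apart in how its reads fell. An even read number was found there for 44.9% of genes with 1 to 100 reads, against 57.9% to 60.8% in the other 5 libraries, and the members' calls without it stand beside BCAT4. Nothing in the labels says that the replicates were grown apart, and the p-values therefore speak only of the spread among these 6 libraries, which may be technical.

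The upstream sequences of 4 members are shown, namely the MYB gene with the largest change and the 3 cytochromes P450. MAM1 and MAM3, not shown, changed more than these cytochromes P450 (log2 fold changes -0.58 and -0.42) and had no ACCTACC in the windows searched. Each run holds the 250 bases before the annotated gene start, 5′ to 3′ on the gene's strand, from the RefSeq annotation of TAIR10.1. Capitals mark the G-box CACGTG, a site type bound by MYC factors, or the AC element ACCTACC, a site type bound by MYB factors, on either strand.
MYB28 (AT5G61420), chr5:24691188-24691437, minus strand: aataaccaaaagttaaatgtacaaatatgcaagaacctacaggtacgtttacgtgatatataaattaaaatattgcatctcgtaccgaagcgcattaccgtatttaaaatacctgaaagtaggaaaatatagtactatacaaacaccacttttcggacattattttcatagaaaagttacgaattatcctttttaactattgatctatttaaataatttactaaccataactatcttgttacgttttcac
CYP79F1 (AT1G16410), chr1:5608432-5608681, plus strand: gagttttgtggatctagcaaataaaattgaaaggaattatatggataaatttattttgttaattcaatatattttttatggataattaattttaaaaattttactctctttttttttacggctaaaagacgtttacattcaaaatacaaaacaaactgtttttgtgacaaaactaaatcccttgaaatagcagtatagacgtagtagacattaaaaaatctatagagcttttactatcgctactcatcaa
CYP79F2 (AT1G16400), chr1:5604794-5605043, plus strand: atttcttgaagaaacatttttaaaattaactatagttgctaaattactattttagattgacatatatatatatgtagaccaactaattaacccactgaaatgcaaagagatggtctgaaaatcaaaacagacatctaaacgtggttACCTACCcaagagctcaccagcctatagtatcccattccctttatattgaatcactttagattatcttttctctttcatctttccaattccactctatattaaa
CYP83A1 (AT4G13770), chr4:7992430-7992679, minus strand: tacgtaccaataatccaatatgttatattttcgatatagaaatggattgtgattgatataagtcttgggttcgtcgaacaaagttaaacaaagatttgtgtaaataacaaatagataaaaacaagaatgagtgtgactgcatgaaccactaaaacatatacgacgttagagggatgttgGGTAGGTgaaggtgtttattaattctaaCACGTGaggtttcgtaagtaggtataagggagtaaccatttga
In windows of 300 bases, from 250 before to 50 after the start, ACCTACC occurred in 3 of the 10 members and in 1.38% of the 27443 protein-coding genes with such a window. The 3 members were CYP79F2 (first base at -104), CYP83A1 (at -71, as GGTAGGT on the gene's strand) and CYP79F1 (at base 39 after the start, outside the run shown). CYP79F1 and CYP79F2 are neighbours that share 91.9% of aligned coding bases, so their matches may not be independent. ACCAACC occurred in 1 member, BAT5, and in 3.29% of all windows, and ACCTAAC in 0 members and 2.88% of windows. The G-box occurred in CYP83A1 (at -43) and BAT5 (at base 6 after the start), and in 7.68% of all windows. The looser E-box CANNTG, which includes every G-box, occurred in 7 of 10 members and in 61.7% of windows. These are matches of letters in short windows and do not show that a factor binds there.

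In seedlings on Gln, MYB28 and MAM1 had 34.7% and 66.5% of their levels on NH4NO3, and 4 further members fell by less, while CYP79F1 rose to 132%. Among the 9 members tested, 6 fell, 1 rose and 2 were not called. Calls rest on limma with an adjusted p below 0.05 (Benjamini-Hochberg, over all 19284 genes tested). Log2 fold changes are differences, Gln minus NH4NO3, of log2(RPKM + 1) and understate the change of low genes. By that rule 41.2% of all genes tested were called, 19.8% lower and 21.4% higher. Over the 9 members the median log2 fold change came to -0.34, and over all genes tested to -0.02. The groups did not overlap for 6 members lower and 1 higher, and for 53.6% of all genes tested, 27.1% lower and 26.5% higher. In these whole-seedling libraries, fewer cells that express a gene and less of its RNA per cell cannot be told apart.

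**Figure D1:**
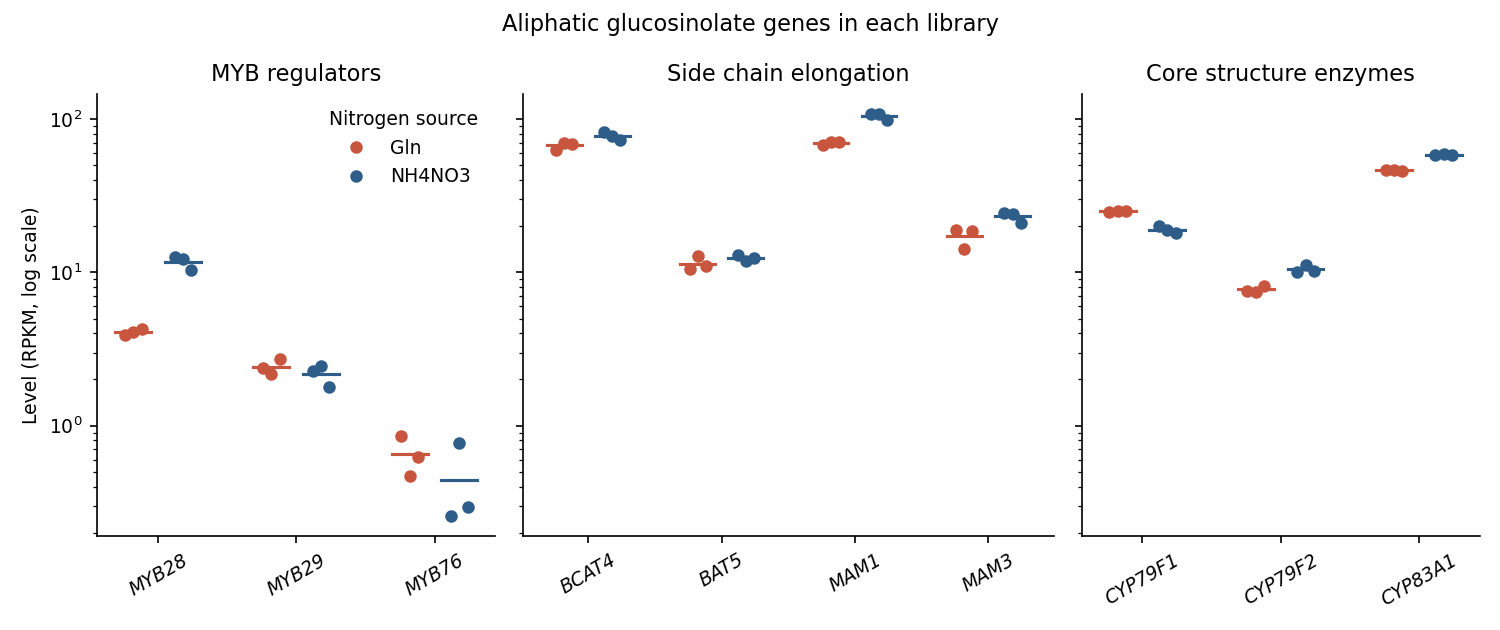
Level of each of the 10 genes in RPKM on a log axis, with 1 point per library and a line at the group mean, for seedlings on Gln (left of each pair) and on NH4NO3 (right of each pair). The MYB28 points lie between 3.90 and 4.25 RPKM on Gln and between 10.4 and 12.7 RPKM on NH4NO3, while the points of MYB29, MYB76 and BAT5 overlap between the groups.

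The 3 regulators are MYB factors of 1 subgroup, of which MYB28 is known as the main activator of aliphatic glucosinolate genes. MYB28 had 3.90, 4.09 and 4.25 RPKM in the Gln libraries, against 12.7, 12.2 and 10.4 RPKM in the NH4NO3 libraries. All Gln values were below all NH4NO3 values, and the Gln mean was 34.7% of the NH4NO3 mean. The log2 fold change was -1.32 ± 0.09 (SE; limma adjusted p = 7.2e-06), the 70th lowest of the 19284 genes tested. With a pseudocount of 5 in place of 1 it was -0.88, still called (limma adjusted p = 9.5e-06). Between 213 and 270 reads lay behind each Gln value and 532 to 743 behind each NH4NO3 value. MYB28 lies on chromosome 5 at 24689069 to 24691187, minus strand.

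MYB29, known for its part in the jasmonate response of the pathway, had 2.37, 2.18 and 2.74 RPKM in the Gln libraries, against 2.27, 2.44 and 1.78 RPKM in the NH4NO3 libraries. The groups overlapped, and the log2 fold change of 0.12 had a 95% confidence interval from -0.15 to 0.40 (limma adjusted p = 0.46). MYB76, an accessory activator, had 0.859, 0.469 and 0.622 RPKM in the Gln libraries, against 0.257, 0.764 and 0.294 RPKM in the NH4NO3 libraries. It rested on 17 to 26 reads per library on Gln and 8 to 24 on NH4NO3 and was below the level tested. With no filter on low values its log2 fold change was 0.21 ± 0.15 (SE; limma adjusted p = 0.33), and the groups overlapped. MYB29 (chromosome 5, 2446669 to 2448584) and MYB76 (chromosome 5, 2450027 to 2451807) are neighbours on the plus strand, 1442 bases apart.

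The shares of the regulators were set side by side in each library. MYB28 made up 57.1% ± 3.16 of the summed RPKM of the 3 MYB genes on Gln and 82.0% ± 2.40 on NH4NO3 (SD, n = 3 each). MYB29 made up 33.9% ± 1.91 on Gln and 15.0% ± 0.779 on NH4NO3 (SD, n = 3 each). The per-library log2 ratio of MYB28 to MYB29 was 0.54, 0.68 and 0.49 on Gln, against 2.07, 1.94 and 2.04 on NH4NO3. The groups did not overlap, with a difference of -1.45 (exact 2-sided permutation test over the 6 libraries, p = 0.10; adjusted p = 0.20 over 4 gene pairs). With a pseudocount of 5 the difference was -0.94. The exact permutation test cannot give less than p = 0.10 with 3 libraries against 3. The log2 ratio of MYB29 to MYB76 was 1.06 ± 0.18 on Gln and 1.15 ± 0.21 on NH4NO3 (SD, n = 3 each; exact permutation p = 0.60), and its difference of -0.09 changed sign without Gln replicate 1 (0.01) or NH4NO3 replicate 1 (0.03).

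**Figure D2:**
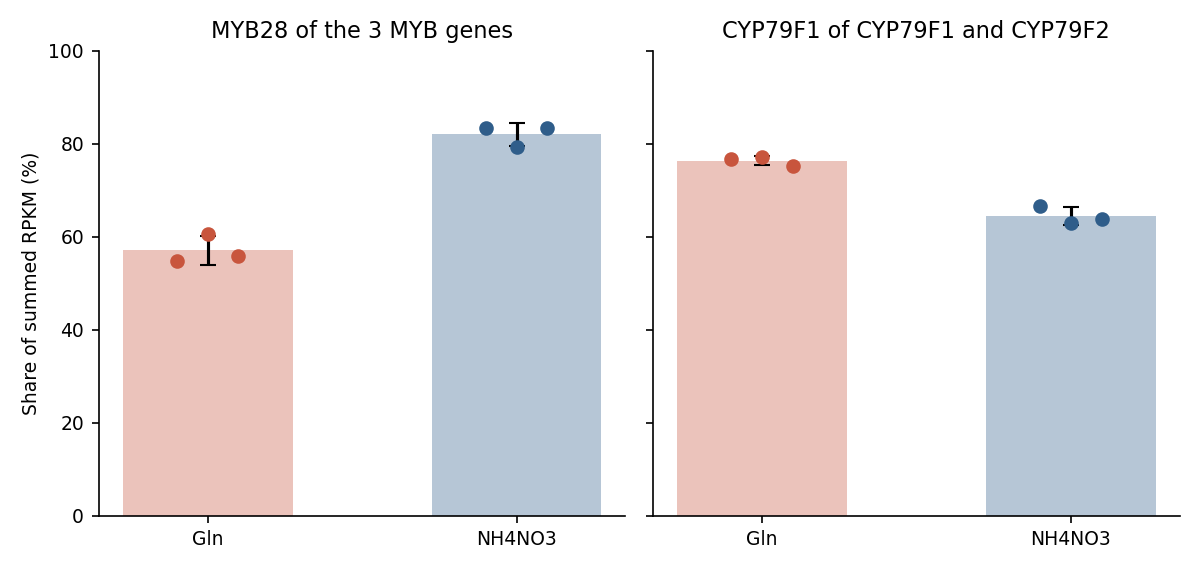
Share of summed RPKM taken by MYB28 among MYB28, MYB29 and MYB76 (left panel) and by CYP79F1 among CYP79F1 and CYP79F2 (right panel), in percent. Bars are group means, error bars the SD over 3 libraries and points single libraries; MYB28 took 57.1% on Gln and 82.0% on NH4NO3, and CYP79F1 took 76.4% on Gln and 64.4% on NH4NO3.

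Chain elongation starts with BCAT4, the aminotransferase that removes the amino group of methionine, and BAT5, the carrier that brings the resulting oxo acid into the plastid. BCAT4 (AT3G19710, chromosome 3, 6846969 to 6849582, minus strand) had 63.5, 70.2 and 69.5 RPKM in the Gln libraries, against 83.2, 77.8 and 73.1 RPKM in the NH4NO3 libraries. The groups did not overlap, and the log2 fold change of -0.20 ± 0.07 (SE) passed narrowly (limma adjusted p = 0.049). This call was lost without any one of Gln replicates 1, 2 and 3 or NH4NO3 replicates 1 and 2, and over all alternatives its adjusted p ranged from 0.012 to 0.15. Without NH4NO3 replicate 2, 5 members were lower and 1 higher, BCAT4 being the call lost (adjusted p = 0.11). BCAT4 overlaps AT3G19700 on the other strand over 307 bases, and that gene averaged 0.00748 RPKM. BAT5 (AT4G12030, chromosome 4, 7210807 to 7213376, plus strand) had 10.5, 12.8 and 11.0 RPKM in the Gln libraries, against 12.9, 12.0 and 12.4 RPKM in the NH4NO3 libraries. Its groups overlapped, and its log2 fold change of -0.12 (95% confidence interval -0.31 to 0.08) was not called (limma adjusted p = 0.30).

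The MAM synthases condense the oxo acid with acetyl-CoA and so set the side chain length, MAM1 in the first rounds and MAM3 over all chain lengths. MAM1 (AT5G23010, chromosome 5, 7703041 to 7706973, plus strand) had 67.9, 71.2 and 71.2 RPKM in the Gln libraries, against 108, 109 and 98.7 RPKM in the NH4NO3 libraries. It was lower in every Gln library, at 66.5% of the NH4NO3 mean, with a log2 fold change of -0.58 ± 0.07 (SE; limma adjusted p = 0.00012). MAM3 (AT5G23020, chromosome 5, 7718118 to 7721866, plus strand), which RefSeq lists as IMS2, had 18.9, 14.3 and 18.5 RPKM in the Gln libraries, against 24.6, 24.2 and 21.0 RPKM in the NH4NO3 libraries. It too fell, to 74.2% of the NH4NO3 mean, with a log2 fold change of -0.42 ± 0.11 (SE; limma adjusted p = 0.013). The genes lie 11144 bases apart and share 83.8% of aligned coding bases, with a longest identical run of 30 bases between their transcripts. The log2 ratio of MAM1 to MAM3 was 1.97 ± 0.24 on Gln and 2.13 ± 0.04 on NH4NO3 (SD, n = 3 each), and the groups overlapped (exact permutation p = 0.40, adjusted p = 0.53).

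The neighbouring cytochrome P450 genes CYP79F1 and CYP79F2 went in opposite directions. These enzymes convert chain-elongated methionine into oximes, CYP79F1 for short and long chains and CYP79F2 for long chains. CYP79F1 (chromosome 1, 5608682 to 5612064, plus strand) had 24.9, 25.3 and 25.0 RPKM in the Gln libraries, against 20.2, 18.9 and 18.0 RPKM in the NH4NO3 libraries. Every Gln value was above every NH4NO3 value, and the log2 fold change was 0.38 ± 0.07 (SE; limma adjusted p = 0.0017). CYP79F2 (chromosome 1, 5605044 to 5607498, plus strand) had 7.57, 7.50 and 8.22 RPKM in the Gln libraries, against 10.1, 11.1 and 10.2 RPKM in the NH4NO3 libraries. Every Gln value was below every NH4NO3 value, and the log2 fold change was -0.39 ± 0.08 (SE; limma adjusted p = 0.0035).

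CYP79F1 made up 76.7%, 77.2% and 75.3% of the summed RPKM of the pair in the Gln libraries, against 66.6%, 62.9% and 63.8% in the NH4NO3 libraries. The log2 ratio of CYP79F1 to CYP79F2 was 1.57 ± 0.07 on Gln and 0.80 ± 0.11 on NH4NO3 (SD, n = 3 each). The groups did not overlap, and the difference of 0.77 reached the smallest p the exact permutation test allows (p = 0.10, adjusted p = 0.20). The genes are 1183 bases apart on the same strand, so that the upstream run shown for CYP79F1 lies wholly between them. They share 91.9% of aligned coding bases and an identical run of 100 bases between their transcripts, so their separate values are uncertain where reads fell in shared stretches. The deposited multi-read ratio, by its name the share of reads that map to several places, was 0 for both and for all 10 members. The sources used here do not define this column or give the read length, so the 0 does not show that reads were told apart between CYP79F1 and CYP79F2.

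CYP83A1, which oxidises the oximes in the next step, had 46.8, 46.4 and 46.0 RPKM in the Gln libraries, against 58.5, 59.2 and 58.6 RPKM in the NH4NO3 libraries. The groups were tight and apart, and the log2 fold change was -0.34 ± 0.06 (SE; limma adjusted p = 0.0014). CYP83A1 lies on chromosome 4 at 7990429 to 7992429, minus strand.

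RPKM is scaled by gene length, and the order of levels between genes holds for the deposited lengths only. Those lengths differ from the RefSeq transcript lengths, for example 2144 against 1852 bases for CYP79F1 and 1017 against 1297 bases for MYB76. On Gln the order was MAM1, BCAT4, CYP83A1, CYP79F1, MAM3, BAT5, CYP79F2, MYB28, MYB29 and MYB76, and the ranges of MAM1 and BCAT4 overlapped while all other neighbours in the order were apart. On NH4NO3 the order was MAM1, BCAT4, CYP83A1, MAM3, CYP79F1, BAT5, MYB28, CYP79F2, MYB29 and MYB76, with overlap of BAT5 with MYB28 and of MYB28 with CYP79F2. With deposited lengths CYP79F1 was above MAM3 on Gln and below it on NH4NO3. With RefSeq transcript lengths, an alternative chosen after seeing the data, CYP79F1 stayed above MAM3 on Gln (28.8 to 29.3 against 14.0 to 18.6), whereas on NH4NO3 their ranges overlapped (20.9 to 23.4 against 20.7 to 24.2). At those lengths the ranges of MAM1 and BCAT4 on Gln, and of BAT5 and MYB28 on NH4NO3, were apart, and MAM3 and BAT5 overlapped on Gln. With deposited lengths MYB28 was below CYP79F2 on Gln and overlapped with it on NH4NO3. At RefSeq transcript lengths MYB28 stayed below CYP79F2 on Gln. On NH4NO3 it then lay above CYP79F2 (means 11.7 and 9.8), with ranges barely apart. The 10 levels summed to 253 ± 5.07 RPKM on Gln and 322 ± 15.1 RPKM on NH4NO3 (SD, n = 3 each), the Gln sum being 78.6% of the NH4NO3 sum. MAM1 took 27.7% ± 0.266 of that sum on Gln and 32.7% ± 0.482 on NH4NO3 (SD, n = 3 each).

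The remaining genes of the pathway were grouped by pathway step, and some lists held more genes that rose while others held more that fell. These lists too were chosen with earlier results of these data known. Beside their counts, 41.2% of all genes tested were called, 19.8% lower and 21.4% higher. Of 8 other genes that serve chain elongation, 4 fell, 0 rose and 4 were not called. At an unadjusted p under 0.05, 1 was higher by limma, and voom weights in limma also called 1 higher. IPMI2, a small subunit of the isopropylmalate isomerase, fell by 0.31 on the log2 scale and IMD1, an isopropylmalate dehydrogenase of methionine chain elongation, by 0.24. BCAT3, a plastid aminotransferase shared with leucine synthesis, fell by 0.22, and IMD3, a further dehydrogenase, also by 0.22. The list had 1 lower member without Gln replicate 1 or without NH4NO3 replicate 3, and 2 without Gln replicate 2, NH4NO3 replicate 1 or NH4NO3 replicate 2; 1 was higher without Gln replicate 1 or NH4NO3 replicate 1. Of 5 genes of methionine synthesis 2 were called, near the 41.2% of all genes tested. Both fell and 3 were not called, with 0 higher also at an unadjusted p under 0.05 and with voom weights. The 2 that fell were CGS1, which makes cystathionine, with a log2 fold change of -0.24, and CBL, which splits it, with -0.17. Neither was called without Gln replicate 1, Gln replicate 2 or NH4NO3 replicate 1, and 1 was called without Gln replicate 3 or NH4NO3 replicate 2.

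**Figure D3:**
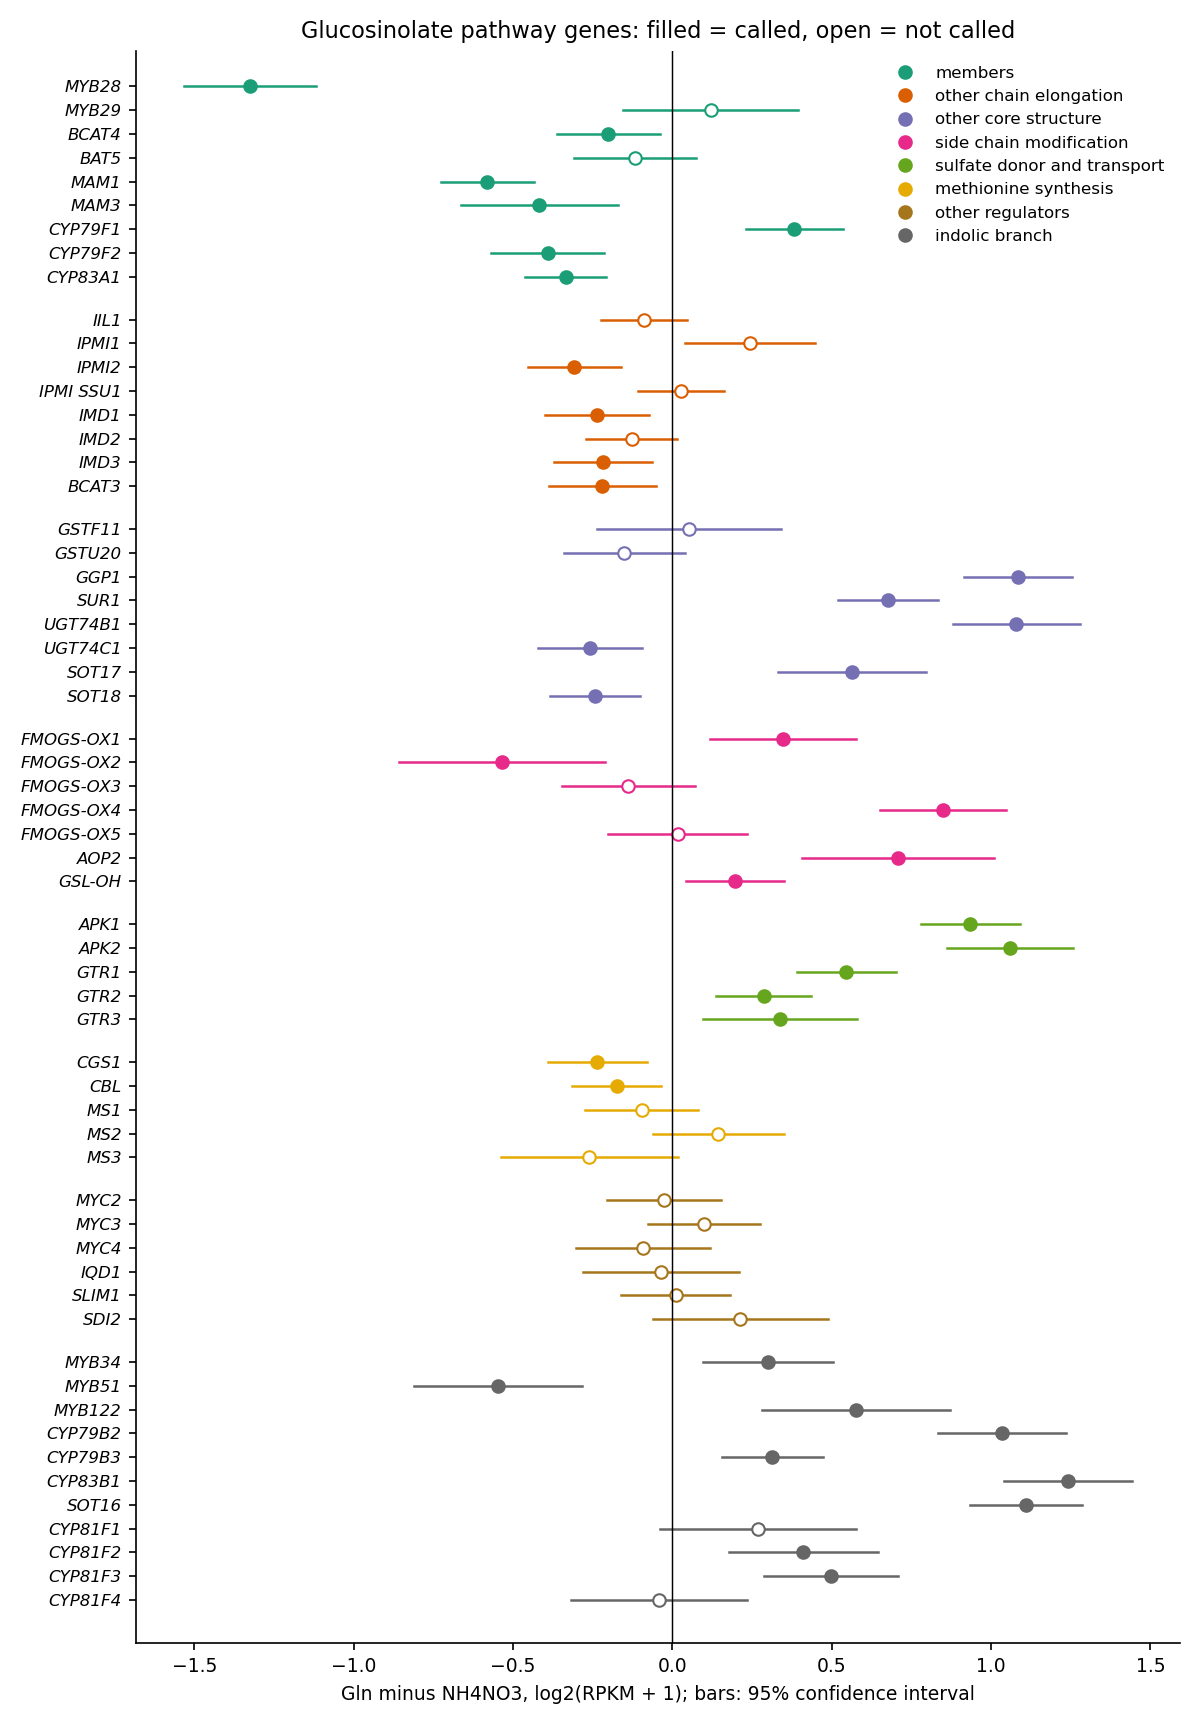
Difference in log2(RPKM + 1) of each tested glucosinolate gene, Gln minus NH4NO3, with 95% confidence intervals as bars; filled points were called by limma and open points were not. MYB28 lies farthest left at -1.32, GGP1 and UGT74B1 of the later core steps lie at 1.08, and CYP83B1 of the indolic branch lies farthest right at 1.24.

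Of 8 other genes of core synthesis, 4 rose, 2 fell and 2 were not called. Among all genes tested, 21.4% were called higher and 19.8% lower. GGP1, a peptidase that trims the glutathione conjugate and serves both branches, had 450 ± 25.5 RPKM on Gln and 212 ± 12.7 RPKM on NH4NO3 (SD, n = 3 each; log2 fold change 1.08 ± 0.08 SE, limma adjusted p = 6.9e-06). UGT74B1, a glucosyltransferase of both branches, rose by 1.08, SUR1, the C-S lyase of both branches, by 0.68, and SOT17, a sulfotransferase of the aliphatic pathway, by 0.56. The 2 that fell, named after their values were seen, were UGT74C1 (-0.26), a glucosyltransferase of the aliphatic pathway, and SOT18 (-0.24), like SOT17 a sulfotransferase of that pathway. Without Gln replicate 2, NH4NO3 replicate 1 or NH4NO3 replicate 2, 1 was lower, UGT74C1 being the call lost.

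Among genes that modify the finished side chain, 7 of 9 were tested, of which 4 rose, 1 fell and 2 were not called. The shares of all genes tested were 21.4% called higher and 19.8% lower. FMOGS-OX4, an S-oxygenase, had 51.6 ± 2.45 RPKM on Gln and 28.3 ± 3.25 RPKM on NH4NO3 (SD, n = 3 each) and rose by 0.85 on the log2 scale. AOP2, a dioxygenase gene known to be defective in the Col ecotype, rose by 0.71 and FMOGS-OX1 by 0.35, whereas FMOGS-OX2 fell by 0.53 on the log2 scale. Without Gln replicate 3 or NH4NO3 replicate 2, 2 were higher, and FMOGS-OX2 was not called without NH4NO3 replicate 2. FMOGS-OX1 was not called without Gln replicate 2, Gln replicate 3 or NH4NO3 replicate 2. The remaining gene that rose, named after its values were seen, was the dioxygenase gene GSL-OH. Its log2 fold change was 0.20 (limma adjusted p = 0.044), and its call was lost under 8 of 14 alternatives. All 5 genes of sulfate activation and glucosinolate transport rose, with 0 lower also at an unadjusted p under 0.05 and with voom weights. By the same rule 21.4% of all genes tested were called higher. APK2 and APK1, kinases that make the sulfate donor for both branches, rose by 1.06 and 0.93, and the importers GTR1 and GTR3 by 0.55 and 0.34. GTR3 was not called without Gln replicate 2, Gln replicate 3, NH4NO3 replicate 2 or NH4NO3 replicate 3.

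Of the other regulators 6 of 7 were tested and 0 were called by limma, with 0 at an unadjusted p under 0.05 and 0 with voom weights. Limma called 41.2% of all genes tested. MYC2, MYC3 and MYC4, bHLH partners of the MYB factors, had log2 fold changes of -0.03, 0.10 and -0.09. SDI2, a repressor of MYB28 under sulfur shortage, had 0.21 (95% confidence interval -0.06 to 0.49), and its relative SDI1 was at 0.898 ± 0.279 RPKM on Gln and 1.07 ± 0.294 RPKM on NH4NO3 (SD, n = 3 each), below the level tested.

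The indolic branch is set beside the aliphatic genes only to show where they differ. Of its 11 genes 8 rose, 1 fell and 2 were not called, beside 21.4% of all genes tested called higher and 19.8% lower. The median log2 fold change was 0.41, against -0.34 for the 9 aliphatic members. CYP83B1, the counterpart of CYP83A1, had 405 ± 40.5 RPKM on Gln and 170 ± 12.5 RPKM on NH4NO3 (SD, n = 3 each; log2 fold change 1.24 ± 0.09 SE). SOT16 rose by 1.11, CYP79B2, the counterpart of the CYP79F genes, by 1.03 and MYB122 by 0.58. MYB34, named after its values were seen, rose by 0.30 but was not called under 5 of 14 alternatives. The 1 gene that fell, named after its values were seen, was MYB51 (-0.55), an activator of the indolic branch. The difference between the branches was not tested.

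Most shoot and vascular markers were lower on Gln, as were most members, whereas most root markers were higher. Limma called 19.8% of all genes tested lower and 21.4% higher. The marker lists were also chosen with earlier results of these data known. Of 7 vascular markers tested, 6 were lower, and the 8 on the list summed to 187 to 190 RPKM on Gln and 238 to 241 RPKM on NH4NO3. Of 10 shoot markers 9 were lower, with sums of 11719 to 13441 RPKM on Gln and 15115 to 17453 RPKM on NH4NO3. Of 10 root markers 7 were higher, with sums of 1788 to 1922 RPKM on Gln and 1617 to 1975 RPKM on NH4NO3. The shoot and root sums mostly reflect 1 gene each, and neither gene was called. RBCS1A averaged 8628 RPKM on Gln and 9869 RPKM on NH4NO3, and PYK10 of the root list 1720 and 1731 RPKM. No root marker was called lower by limma, but 1 was lower at an unadjusted p under 0.05 (SCR, named after its values were seen, with a log2 fold change of -0.29), 1 with voom weights and 1 without Gln replicate 2. No marker was without reads. The median log2 fold change was -0.40 for vascular, -0.64 for shoot and 0.54 for root markers. MYB28, at -1.32, was below the lowest vascular marker (-0.53) and the lowest shoot marker (-1.09), whereas the other members that fell lay within the range of the shoot markers. The part of tissue proportions in the members' changes was not tested.

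**Figure D4:**
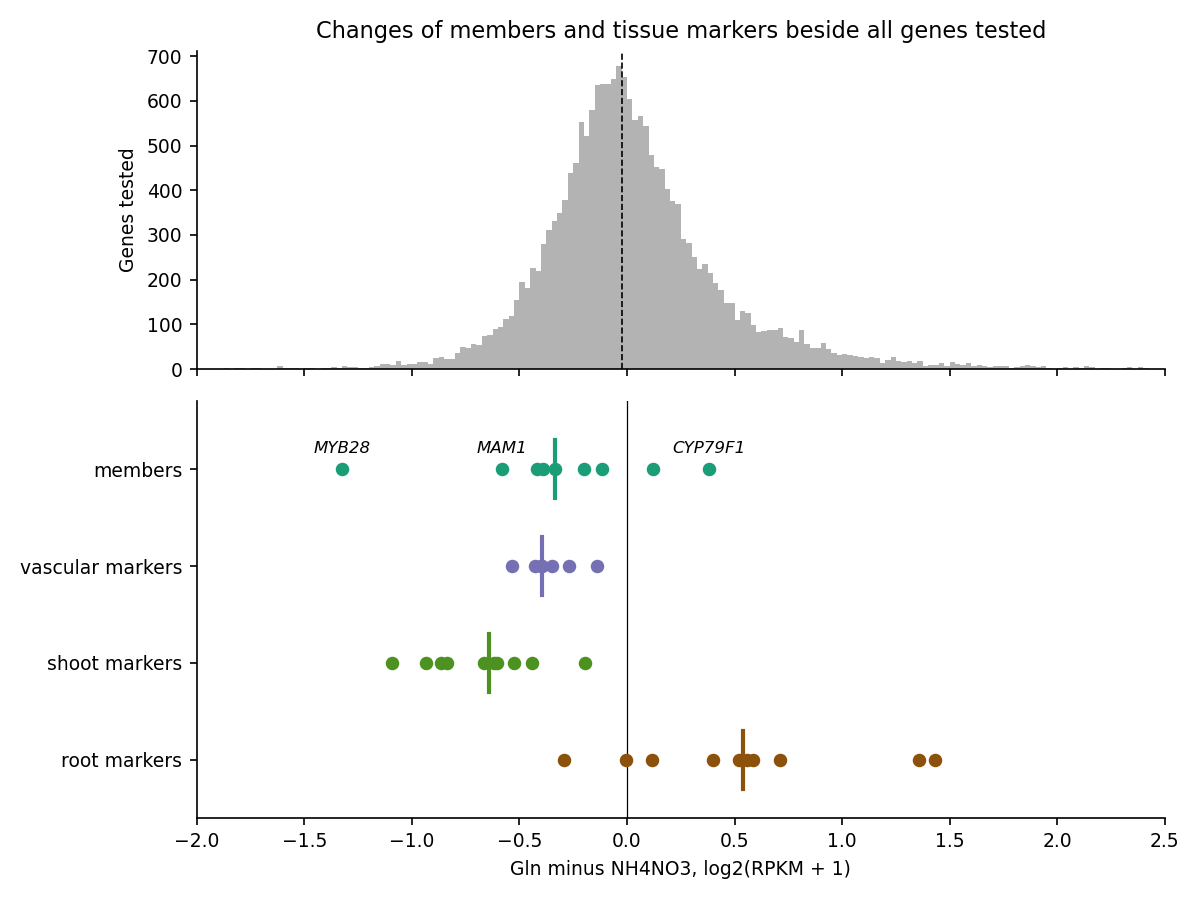
Upper panel: number of tested genes by difference in log2(RPKM + 1), Gln minus NH4NO3, with a dashed line at the median of -0.02; 45 of 19284 genes lie outside the axis. Lower panel: the 9 tested members and the markers of vascular tissue, shoot and root on the same axis, 1 point per gene and a bar at each list's median (-0.34, -0.40, -0.64 and 0.54 from top to bottom).

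Likeness to the members was measured as the Pearson correlation of log2(RPKM + 1) with the mean standardised profile of the 9 tested members over the 6 libraries, which share their group difference. Among 13973 other genes that averaged 5 RPKM or more, 284 (2.03%) had a correlation above 0.95. The 5 most alike were GalAK, a galacturonic acid kinase (0.996), AT4G34290 (0.995), AT3G15410 (0.995), HUB1, a histone ubiquitin ligase (0.994), and CLF, a histone methyltransferase of the Polycomb group (0.994). Of all genes on the lists, the nearest was SEOR1, a phloem gene among the vascular markers, at rank 19 (0.990). AS1 of the shoot markers followed at rank 26 (0.988) and APL of the vascular markers at rank 57 (0.980). Other markers of these 2 lists ranked far lower, for example SWEET11 (vascular) at 2809 (0.779) and RBCS1A (shoot) at 4133 (0.642). Root markers ran from SCR at rank 3145 (0.750) to PRP3 at rank 13131 (-0.930). The nearest glucosinolate or methionine genes were CBL, at rank 84 (0.975), CGS1, at rank 350 (0.943), and UGT74C1, at rank 413 (0.938).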

How the data were processed

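RNA libraries of 6 whole-seedling samples were made with an Illumina TruSeq kit, per the labels' protocols; the kit does not mark strand. The authors deposited 1 RPKM value per gene and library, with library sizes scaled by TMM per the deposited file's name, and a gene length and a multi-read ratio (a fraction). The submitters' processing notes list TAIR10 and SAMtools. The sources used here name no aligner, counter or annotation release. Values times gene length fell on even steps in each library, offset by 0.5 step, from which read numbers were implied; among those up to 20, 98.1% to 98.9% came out within 0.05 of a whole number.

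Groups were taken from the treatment labels. Genes averaging 1 RPKM or more were tested with limma 3.58.1 (R 4.3.3) on log2(RPKM + 1), with a mean-variance trend, 2-sided, without a replicate block. Gene pairs were compared by exact permutation (SciPy 1.17.1). Coding sequences were aligned with Biopython 1.88. Symbols and positions are those of RefSeq TAIR10.1, which held all 91 loci of the lists. Named genes were all 10 members, up to 4 called genes per list with the largest change, and the 5 most alike genes. Members and lists were chosen with earlier results of these data known. The test was also run on simulated reads with the same dispersion for every gene, which cannot vouch for the calls made here. Alternatives were the pseudocount, the filter, 2 scalings, voom weights, the block and leaving out each library, and, chosen after seeing the data, RefSeq transcript lengths for levels.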

Additional observations from a re-analysis of the deposited data

How the results depend on the processing

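Under 14 alternatives, members called lower numbered 5 or 6 and members called higher 1. The log2 fold change of MYB28 ranged from -1.53 to -0.88, of MAM1 from -0.69 to -0.55, of MAM3 from -0.49 to -0.29, of CYP79F1 from 0.33 to 0.42, of CYP79F2 from -0.43 to -0.28 and of CYP83A1 from -0.42 to -0.31, each called every time. BCAT4 lost its call under 8, among them no filter on low values (adjusted p = 0.058) and rescaling to TPM (0.077). All genes called numbered 5900 to 8328, and 5900 to 7089 with 1 library left out. The difference in log2 ratio was 0.73 to 0.84 for CYP79F1 to CYP79F2, -0.30 to -0.07 for MAM1 to MAM3, -1.50 to -1.40 for MYB28 to MYB29 and -0.181 to 0.027 for MYB29 to MYB76 with 1 library left out. A pseudocount of 5 gave 0.60 for CYP79F1 to CYP79F2 and -0.94 for MYB28 to MYB29, and a pseudocount of 0.5 gave 0.80 and -1.56. With RefSeq transcript lengths, chosen after seeing the data, CYP79F1 took 80.1% of its pair on Gln and 69.3% on NH4NO3.

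Same-numbered libraries did not deviate together (correlations of deviations from the group means -0.07, -0.10 and -0.01), and no library correlated best with its own number. With the replicate block 7274 genes were called, among them 5 members lower and 1 higher; BCAT4 was lost (adjusted p = 0.084), as were IMD3, BCAT3, GSL-OH, GTR3 and CBL (0.051 to 0.076).

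Fold changes of companion genes kept direction and call in 619 of 693 cases, lost the call in 53 and gained it in 6. The 15 that changed sign were never called. With quantile normalization these were IPMI SSU1 (-0.067) and FMOGS-OX5 (-0.025). With 1 library left out they were FMOGS-OX5 (-0.069 to 0.086), SLIM1 (-0.0046 to 0.035), CYP81F4 (-0.203 to 0.052), GSTF11 (-0.050 to 0.179), MYC2 (-0.078 to 0.041) and IQD1 (-0.127 to 0.040). After quantile normalization the MYB29 to MYB76 ratio has no value, since MYB76 was not among the genes tested. The cause of these changes was not tested. MYB76 rested on 8 to 26 reads per library.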
